A study of Mus musculus with 20 samples.

Results

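The 9 endothelial identity genes Pecam1, Cdh5, Tek, Tie1, Vwf, Eng, Emcn, Esam and Cldn5 were followed across the aortas of 20 mice. They were taken by symbol from a table of sense-strand read counts for 21078 genes. All 9 of 9 were found, each in 1 row, and all were among the 13124 genes tested, whose counts averaged 5 or more over the mice. The mice were wildtype C57BL/6 males of 10 to 12 weeks. Of these, 10 were labelled Proton and 10 Gamma, and in each radiation type 1 mouse received each of 0, 5, 10, 25, 50, 75, 100, 125, 150 and 200 cGy to the whole body. Thoracic aortas were taken 4 h after exposure, and the mice at 0 cGy had been placed in the irradiators without a dose. No dose was replicated within a radiation type, so dose responses rest on trends across 10 mice.

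The endothelium is the single cell layer that lines every vessel. In a large artery it is thin beside the smooth muscle of the media, and its transcripts are a small part of the RNA of the whole vessel wall. Its genes fall into several roles. Cdh5 (VE-cadherin), Pecam1 (CD31), Esam and Cldn5 (claudin-5) hold endothelial cells together at their junctions. Tek (Tie2) is the receptor of the angiopoietins and Tie1 is its partner receptor. Eng (endoglin) is a co-receptor of the TGF-beta family, Emcn (endomucin) is a sialomucin of the cell surface, and Vwf (von Willebrand factor) is a clotting glycoprotein stored in Weibel-Palade bodies. In whole tissue, fewer endothelial cells and less RNA per endothelial cell cannot be told apart, so the summed level of these genes is called endothelial content here only in that joint sense.

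Counts summed to between 6051657 and 6058006 per mouse. Smooth muscle markers were the most abundant of the marker lists, with summed counts of 6 genes between 165116 and 332585, against 3138 to 9135 for the 9 endothelial genes. The lowest smooth muscle sum was that of the proton mouse at 75 cGy, in which fat markers were highest. That library stood apart from the rest.

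Upstream sequences are shown for 3 of the genes because they differed most clearly in how they varied across mice: Tek varied widely and with the other members, Eng varied least, and Cldn5 did not vary with the others. Each is the 250 bases before the start of transcription from the RefSeq promoters of GRCm38.p6, placed by an exact and single match on mm9, the build of the counts. They lie at chr4:94405730-94405979 (Tek), chr2:32501865-32502114 (Eng) and chr16:18776690-18776939 (Cldn5), all on the plus strand and ending 1 base before the annotated gene. Capitals mark GGAA, the core of the sites that ETS transcription factors bind, on either strand (TTCC on the strand shown).
Tek: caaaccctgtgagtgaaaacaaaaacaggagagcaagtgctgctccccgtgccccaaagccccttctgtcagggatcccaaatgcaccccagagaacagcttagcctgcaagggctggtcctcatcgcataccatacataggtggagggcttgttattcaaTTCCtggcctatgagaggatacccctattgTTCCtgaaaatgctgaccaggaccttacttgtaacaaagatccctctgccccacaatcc
Eng: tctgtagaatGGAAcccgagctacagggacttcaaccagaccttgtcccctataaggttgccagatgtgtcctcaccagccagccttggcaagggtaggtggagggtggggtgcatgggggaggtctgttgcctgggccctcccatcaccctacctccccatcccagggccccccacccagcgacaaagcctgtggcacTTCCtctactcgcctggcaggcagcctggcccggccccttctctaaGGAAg
Cldn5: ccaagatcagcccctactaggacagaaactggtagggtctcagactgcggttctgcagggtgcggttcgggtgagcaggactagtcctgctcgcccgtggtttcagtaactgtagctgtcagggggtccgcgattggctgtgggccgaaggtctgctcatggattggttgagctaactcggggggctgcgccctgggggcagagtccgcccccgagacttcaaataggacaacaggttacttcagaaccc
The letters occurred 2 times upstream of Tek, 3 times upstream of Eng and 0 times upstream of Cldn5. GGAA is common, and 93.4% of 32851 promoters held it in the same window, with a median of 3. The sequences of Tie1 and Emcn were also held, with 7 and 4 occurrences, and those of Pecam1, Cdh5, Vwf and Esam were not analysed here.

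The members differed widely in level. On the scale of CPM (counts scaled to the library total) per kilobase of transcript, the mean level was 131 ± 52.7 for Pecam1, 35.3 ± 5.59 for Eng, 28.6 ± 5.39 for Esam, 23.6 ± 13.2 for Vwf, 14.7 ± 6.98 for Cdh5, 11.3 ± 3.88 for Cldn5, 10.8 ± 5.69 for Tek, 10.7 ± 4.83 for Tie1 and 4.31 ± 2.12 for Emcn (SD, n = 20 mice). Pecam1 was above Eng and Tie1 above Emcn in 20 of 20 mice, and Eng was above Esam in 18 of 20. From Esam down to Tie1 each neighbour in this order differed from the next by less than the larger of their standard deviations.

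Vwf, on chromosome 6 (mm9, 125496792 to 125636697, plus strand), had the widest range of counts. Its counts ran from 422 to 2105 in proton mice, with a median of 1859, and from 311 to 2261 in gamma mice, with a median of 878.5. The highest mouse thus had 7.27 times the count of the lowest. In both radiation types the mice at 0 cGy were high, with 2105 and 1784 counts, and those at 5 cGy were low, with 481 and 311.

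The receptors were high and low in much the same mice as Vwf. Tek (chromosome 4, 94405980 to 94541667, plus strand) had 124 to 478 counts in proton mice, with a median of 435, and 79 to 520 in gamma mice, with a median of 217.5. Tie1 (chromosome 4, 118143796 to 118162666, minus strand) had 144 to 546 counts in proton mice, with a median of 282, and 120 to 388 in gamma mice, with a median of 228.5. The ranges of the radiation types overlapped for both receptors.

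Among the junction genes, Pecam1 (chromosome 11, 106515531 to 106611942, minus strand) had 1298 to 4146 counts in proton mice and 1382 to 4294 in gamma mice, with medians of 3327 and 2496.5. Cdh5 (chromosome 8, 106625525 to 106668402, plus strand) had 193 to 935 and 158 to 515 counts, with medians of 357 and 323. Its highest value was that of the proton mouse at 75 cGy, above 515 in the highest gamma mouse and 473 in the next proton mouse. Esam (chromosome 9, 37335663 to 37345904, plus strand) varied much less, with 234 to 471 and 240 to 365 counts and medians of 331.5 and 295.5. Cldn5 (chromosome 16, 18776940 to 18778353, plus strand) had 43 to 187 counts in proton mice and 66 to 156 in gamma mice, with medians of 87 and 102. Its lowest counts in proton mice, 43 and 59, were at 150 and 200 cGy, where Vwf and Tek were high.

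The remaining surface genes differed in how far they varied, with Eng the least variable of the 9. Eng (chromosome 2, 32502115 to 32538189, plus strand) had 620 to 966 counts in proton mice and 582 to 1002 in gamma mice, with medians of 743 and 693.5, so that the highest mouse had 1.72 times the count of the lowest. Emcn (chromosome 3, 137004031 to 137095149, plus strand) was the least abundant member, with 35 to 171 and 25 to 120 counts and medians of 68 and 59. Its highest count, like that of Cdh5, came from the proton mouse at 75 cGy.

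**Figure D1:**
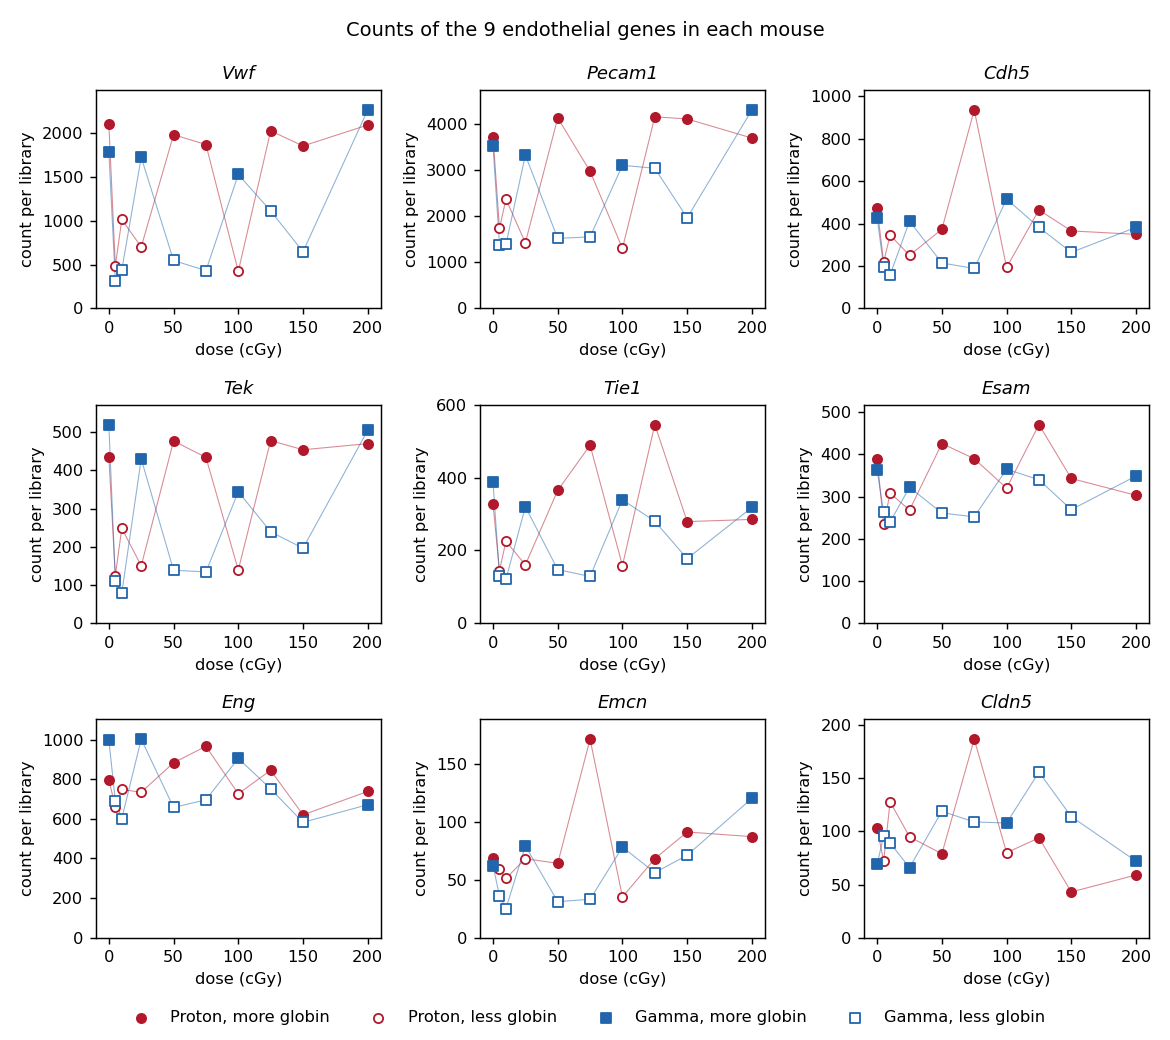
Each panel plots the count of 1 gene in every library (vertical axis, counts) against dose (horizontal axis, cGy). Red circles are proton mice, blue squares gamma mice, and filled symbols mark the 10 mice with more globin transcripts. Vwf runs from 311 to 2261 with no steady course along dose. All filled symbols lie above all open ones for Vwf and Tek only. For the other genes they overlap, with a higher median for filled symbols except for Cldn5.

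Variation among mice was larger for these genes than for most others. After the mean and dose slope of each radiation type were taken out, the standard deviation of the log2 level had a median of 0.62 over the 9 members, against 0.18 over the 9817 genes whose counts averaged 50 or more. Vwf had a value of 0.95, which 0.968% of those genes exceeded, and Tek one of 0.86, which 1.43% exceeded. Eng and Esam had values of 0.23 and 0.26, which 31.0% and 22.3% of genes exceeded. Counting error alone would give 0.04 for Vwf and 0.18 for Emcn on the same scale.

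The members varied jointly over the 20 mice together, with the exception of Cldn5. Over the 20 mice, the 36 pairs of members had a median Pearson r of 0.753 between their log2 levels, and the median Spearman rho was 0.707. All 28 pairs without Cldn5 had an r above 0, between 0.374 and 0.971, and 26 of them had an adjusted permutation p below 0.05 (two-sided, 100000 permutations, Benjamini-Hochberg over the 36 pairs). The 8 pairs with Cldn5 had an r between -0.300 and 0.167, and 0 of them passed, so that 26 of all 36 pairs did. The share of all gene pairs that would pass this test is not given here, so these counts only describe the members. Over all 48181836 pairs of the 9817 genes, the median r was -0.004, and 1.5% of pairs exceeded the members' median. The pairs share the same 20 libraries and are not independent of each other.

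The closest pair was Tek and Vwf, with r = 0.971. Neither gene overlapped between the 2 sets of mice by globin counts, so this value includes the difference between the sets. Within the sets r was 0.732 with more globin and 0.838 with less (10 mice each). The mice did not form clearly separate groups by Tek or Vwf. The largest gap between neighbouring mice was 0.185 of the log2 range for Tek and 0.191 for Vwf. By the same measure it was 0.272 for the summed globin counts that gave the sets, and 0.347 for Cdh5. Over the 20 mice Pecam1 and Vwf had r = 0.961, and Cdh5 and Tie1 0.923. Eng was the least closely tied of the 8 members other than Cldn5, with r = 0.374 for Emcn and 0.465 for Pecam1, and neither of these pairs passed (adjusted permutation p = 0.134 and 0.0538). Taking out the mean and dose slope of each type left the median of the 36 pairs at 0.766, within proton mice it was 0.642, within gamma mice 0.846, and without the proton mouse at 75 cGy 0.770.

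**Figure D2:**
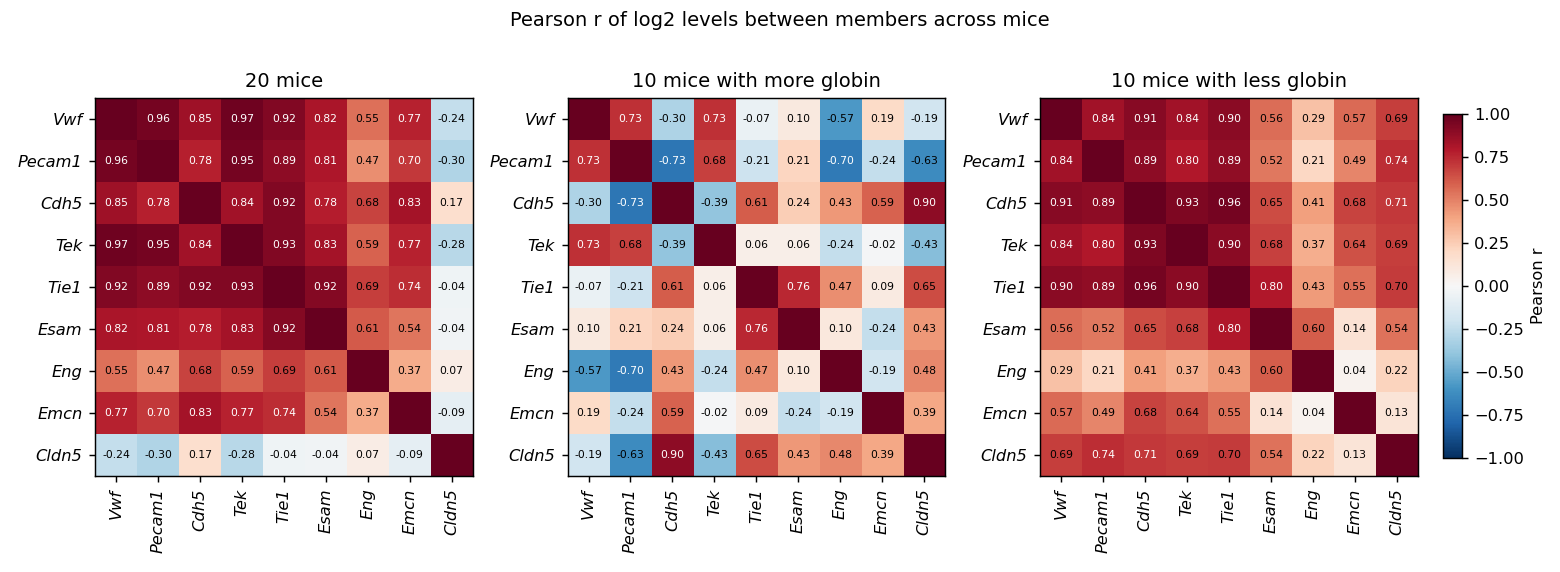
Each panel is a matrix of Pearson r between the log2 levels of 2 members, coloured from -1 (blue) to 1 (red), over 20 mice (left), the 10 mice with more globin (middle) and the 10 with less globin (right). The left panel is red apart from the Cldn5 row, where r lies between -0.300 and 0.167, the middle panel is mixed, and all 36 values of the right panel are above 0.

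The levels of most members differed between libraries with more and with less globin. Mice were split by the summed counts of 4 globin genes (Hba-a1, Hba-a2, Hbb-b1 and Hbb-b2), which come from red blood cells. The cut, at the largest gap, gave 2 sets of 10 mice with no values between 943 and 3327. Those with more globin had 3327 to 13304 counts and were 6 proton mice (0, 50, 75, 125, 150 and 200 cGy) and 4 gamma mice (0, 25, 100 and 200 cGy). Those with less had 130 to 943 counts. The sets were defined after the values were seen, do not correspond to a label, and are compared without a test. Of the other lists, 3 of 6 macrophage markers also did not overlap between the sets, being higher with more globin, as were 0.907% of all 13124 genes tested. The summed macrophage counts were 1285 to 2901 in the mice with more globin and 453 to 1099 in those with less. Platelets, which themselves carry Vwf, Pecam1 and Selp, moved with the sets as well. The 4 tested platelet markers had a median ratio of 2.97 between the sets, the 6 listed ones summed to 95 to 266 counts against 44 to 150, and Pf4 had 50 to 122 against 21 to 50. The 5 tested red blood cell genes and all 6 macrophage markers were above 0 in every library. The part of blood, platelets or macrophages in the endothelial values was not tested.

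Vwf and Tek did not overlap between these sets. Vwf had 1526 to 2261 counts in the mice with more globin and 311 to 1111 in those with less, and Tek 344 to 520 and 79 to 248. These are 2 of 9 members, and among all 13124 genes tested 0.907% were higher in every mouse with more globin and 0.0686% were lower in every such mouse. Pecam1 had a median of 3701.5 counts in the mice with more globin and 1531.5 in those with less, with 1 mouse of each set inside the range of the other. The ratio of the medians was 3.75 for Vwf, 3.34 for Tek, 2.42 for Pecam1, 2.19 for Tie1, 1.94 for Cdh5, 1.8 for Emcn, 1.37 for Esam and 1.25 for Eng. For Cldn5 it was 0.737, in the opposite direction. Over the tested genes, the median ratio was 1.02. Within the sets, Vwf did not rise steadily with globin. The mouse with the most globin, 13304 counts (gamma, 100 cGy), had the lowest Vwf and Tek counts of its set, 1526 and 344. Among the mice with less globin, Vwf was highest, 1111, at 231 globin counts (gamma, 125 cGy), and was 481 at 943 (proton, 5 cGy).

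**Figure D3:**
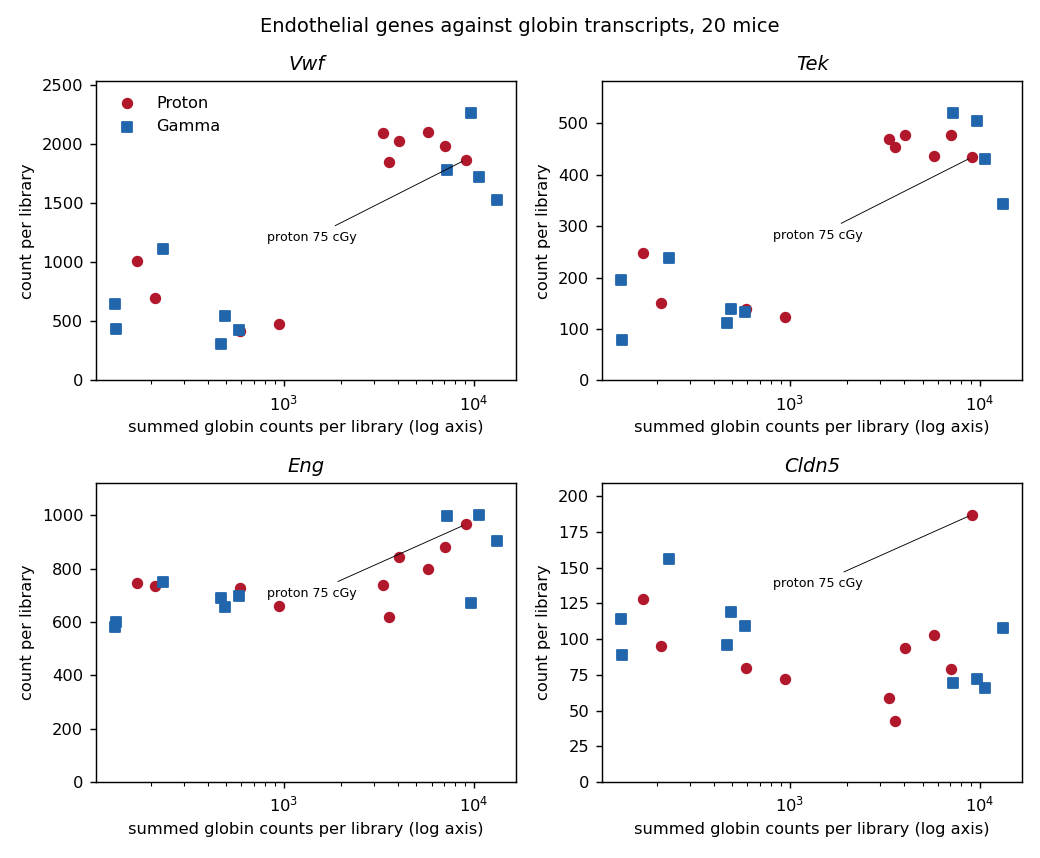
Counts of 4 members (vertical axis, counts per library) against summed globin counts (horizontal axis, log scale) in 20 mice, with proton mice in red and gamma mice in blue. Vwf and Tek are higher on the right, between 1526 and 2261 and between 344 and 520 counts, while Eng and Cldn5 overlap between left and right.

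The joint variation was also read within each set, as a description over 10 mice. Among the 10 mice with less globin, all 36 pairs had an r above 0, with a median of 0.663, Cldn5 included. The 8 pairs with Cldn5 had a median of 0.690 and the 28 pairs without it 0.644. The r of Cldn5 was 0.739 with Pecam1, 0.706 with Cdh5, 0.695 with Tie1 and 0.690 with Vwf, and its lowest were 0.221 with Eng and 0.125 with Emcn. Among the 10 mice with more globin, the median of the 36 pairs was 0.0929 and 21 of them were above 0. The 8 pairs with Cldn5 had a median of 0.411 and the 28 pairs without it 0.073. Vwf, Tek and Pecam1 kept together there, with r between 0.681 and 0.732. Cdh5 instead had r = -0.726 with Pecam1 and 0.896 with Cldn5. The proton mouse at 75 cGy, where Cdh5 and Cldn5 were at their highest, belongs to this set. Without it, over 9 mice, the median of the 36 pairs was 0.115 and that of the 8 pairs with Cldn5 0.117. Cdh5 then had r = -0.598 with Pecam1 and 0.798 with Cldn5. The r of Cdh5 with Emcn turned from 0.591 to -0.395.

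Other endothelial genes were measured to see which of them followed the members. Of 30 further endothelial genes, 6 did not overlap between the globin sets and were higher in the mice with more globin: Nos3, the endothelial nitric oxide synthase, Ptprb, a phosphatase that acts on Tek, Icam2, Clec14a, Ramp2 and Selp. Of all 13124 genes tested, 0.907% were higher in this way and 0.0686% lower. Nos3 had 277 to 547 counts against 113 to 219. Of 8 arterial genes, Gja5, the gap junction protein connexin 40, had 255 to 500 counts against 51 to 187. Efnb2 and Jag1 had ratios of 1.19 and 0.967. The 7 measured capillary genes had ratios between 0.4 and 1.46, and 0 of them failed to overlap. Kdr, Robo4 and Eltd1 of the further endothelial list had ratios of 0.688, 0.5 and 0.458, on the same side as Cldn5. Of the lymphatic list, Prox1 had 0 to 2 counts and Ccl21a 0 to 1 in the libraries, and neither was tested. Genes named in this paragraph were chosen after their values were seen.

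**Figure D4:**
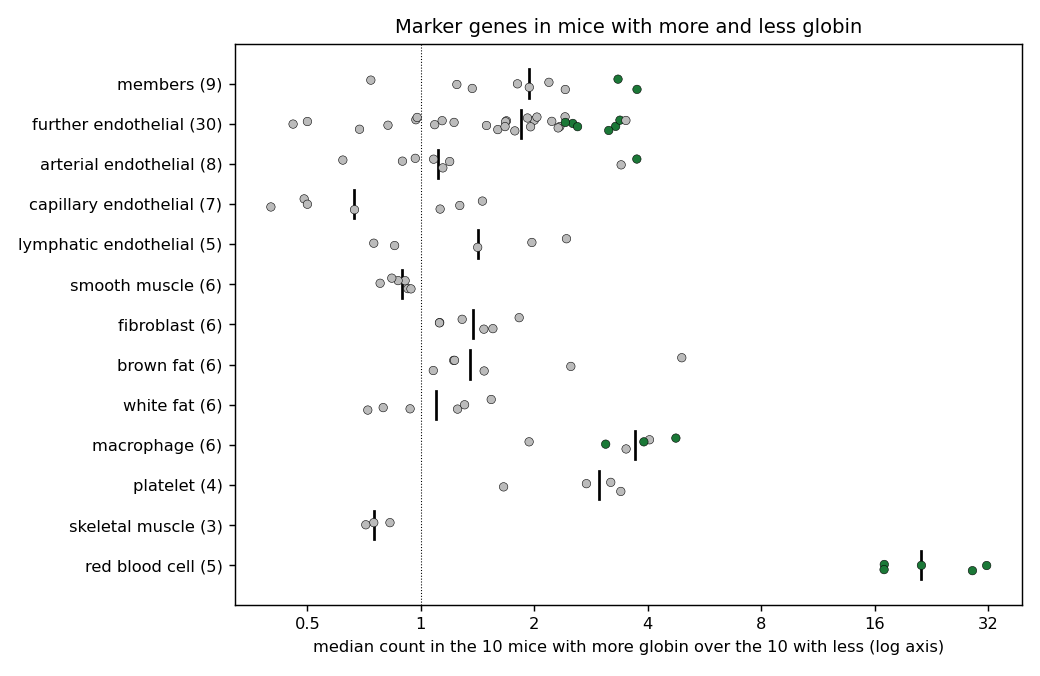
Each point is 1 gene of a marker list, placed by the ratio of its median count in the 10 mice with more globin to that in the 10 with less (horizontal axis, log scale). Green points did not overlap between the sets and vertical bars are list medians. Red blood cell genes lie between 16.95 and 31.7, macrophage genes and most endothelial genes to the right of 1, and capillary and smooth muscle genes mostly to the left.

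Among 9808 other genes of this abundance, those most like the mean standardised log2 level of the 9 members were listed as a description. The closest was Notch4, an endothelial Notch receptor, with r = 0.9754 and rho = 0.932 over 20 mice and counts of 35 to 181. It was followed by Adh1 (r = 0.974), Tmem176b (0.970), Cd93 (0.967), Srgn (0.965), Slco2a1 (0.952), Cp (0.941), Megf6 (0.939), Sp100 (0.939) and Procr (0.937). Within the 10 mice with more globin the r of Notch4 was 0.764 and that of Procr 0.22. Within the 10 with less it was 0.971 and 0.899. Some of these genes are used well beyond the endothelium, as Srgn is in blood and immune cells.

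The proton mouse at 75 cGy had the highest count of all mice for 3 members. Cdh5 had 935 counts against at most 515 in the other mice, Emcn 171 against 120 and Cldn5 187 against 156. Pecam1, with 2968 counts, lay within the range of the other mice. The same mouse was highest for 16 of 30 further endothelial genes and for 5 of 7 measured capillary genes, with 534 counts of Kdr, the VEGF receptor of angiogenic endothelium, against at most 168, and 133 of Car4 against 35. It was also highest for 6 of 6 white fat and 5 of 6 brown fat markers, with 3974 counts of Adipoq against at most 1434 and 7108 of Ucp1 against 2478, and lowest for 6 of 6 smooth muscle markers. White fat markers summed to 19901 in that library and to at most 7919 in the others. The share of all tested genes at which this mouse was highest or lowest is not given here, so these counts only describe the lists. The part of fat tissue in the endothelial values was not tested.

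Whether radiation dose moved the endothelial genes was asked with a slope on dose for each radiation type, fitted across all genes. With edgeR's quasi-likelihood test, 0 of 9 members passed an adjusted p of 0.1 for the proton slope, where 1.76% of all tested genes did, and 0 of 9 for the gamma slope, where 7.65% did. At an unadjusted p under 0.05 there were 0 members for proton and 1 for gamma radiation, beside 13.3% and 18.4% of all tested genes. DESeq2 gave the same counts of members in both respects. With 9 members, 0 and 1 cannot be told apart from such shares. The shares, 1745 and 2413 of 13124 genes, also depended on the setting. At 0 to 125 cGy, with fewer mice, the unadjusted counts were 600 (proton slope) and 782 (gamma slope). After correction of GC content and length they were 1105 and 1797. The members' unadjusted counts stayed at 0 and 1 in both settings. The members' median slope was 0.25 per 100 cGy on the log2 scale for proton and 0.22 for gamma radiation, against 0.00 and 0.01 over all tested genes. Of the 9 slopes, 7 were above 0 for proton and 8 for gamma radiation. Of all 13124 tested genes, 6635 and 7016 were. The members varied jointly in the same mice, so their signs are not independent of each other.

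The genes with the widest variation had the least precise slopes. Each slope follows the 10 mice of its type, but both types were fitted in 1 model. Each SE, interval and p of a slope therefore uses the residual spread of the mice of both types. Vwf had a slope of 0.42 ± 0.41 under proton and 0.39 ± 0.39 under gamma radiation (log2 per 100 cGy ± SE). These had 95% confidence intervals of -0.45 to 1.29 and -0.42 to 1.21. Tek had 0.47 ± 0.39 and 0.25 ± 0.36, Pecam1 0.35 ± 0.27 and 0.33 ± 0.26, Tie1 0.32 ± 0.32 and 0.16 ± 0.30, and Cdh5 0.09 ± 0.32 and 0.22 ± 0.30. Without the gamma mouse at 200 cGy, the gamma slopes were -0.10 for Vwf, -0.22 for Tek and -0.0065 for Tie1, in the opposite direction, and that of Pecam1 was 0.062 ± 0.36. Changes of this size per 100 cGy could not be told from 0 with 1 mouse per dose. The narrowest intervals were those of Eng, -0.24 to 0.20 for proton and -0.38 to 0.06 for gamma radiation, and of Esam, -0.16 to 0.37 and -0.16 to 0.34. Cldn5 had a slope of -0.40 ± 0.23 for proton radiation (edgeR, adjusted p = 0.501) and 0.18 ± 0.23 for gamma radiation (adjusted p = 0.783). At 0 to 125 cGy its proton slope was 0.066 ± 0.31, and with 1 mouse left out its gamma slope ranged from 0.068 to 0.486. Its transcript has the highest GC content of the members, 60.5%. The libraries at 150 and 200 cGy, where its proton counts were lowest, favoured low GC content in both radiation types. The gamma counts of Cldn5 at these doses were 114 and 72, with a median of 102 over the gamma mice. With GC content and length corrected, the slopes of Cldn5 were -0.32 ± 0.22 and 0.28 ± 0.22. The part of GC content in its counts was not otherwise tested.

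Emcn had the smallest p of the members. Its gamma counts were 62 at 0 cGy, 36 and 25 at 5 and 10 cGy, 79 at 25 cGy, 31 and 33 at 50 and 75 cGy, 78 and 56 at 100 and 125 cGy, and 71 and 120 at 150 and 200 cGy. The count at 200 cGy was the highest of the gamma mice and that at 10 cGy the lowest of all. The slope was 0.60 ± 0.26 (edgeR, p = 0.0328, adjusted p = 0.215), and the adjusted p ranged from 0.0782 to 0.980 over 31 alternatives. It passed in 3 of them: without the proton mouse at 75 cGy (0.59 ± 0.20, adjusted p = 0.0872), with brown fat markers as a covariate (0.53 ± 0.19, adjusted p = 0.097) and with red blood cell genes as a covariate (0.60 ± 0.19, adjusted p = 0.0782). Leaving out the proton mouse at 75 cGy changed the SE of this gamma slope, from 0.26 to 0.20, more than the slope itself. Without the gamma mouse at 200 cGy the slope was 0.36 ± 0.36. Its transcript has the lowest GC content of the members, 41.5%, and the 4 libraries at 150 and 200 cGy differed from the other 16 in favouring low GC content, with a correlation across genes of level with GC between -0.403 and -0.351 against -0.0184 to 0.286. With GC content and length corrected, the slope was 0.56 ± 0.26.

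**Figure D5:**
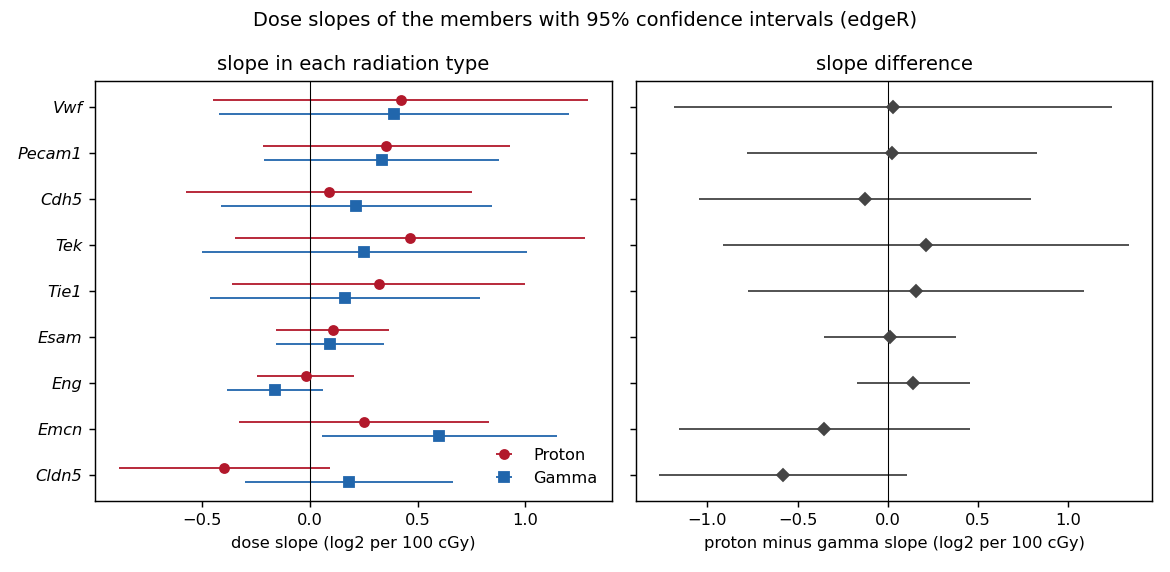
Left, dose slopes of the 9 members (log2 per 100 cGy) for proton (red circles) and gamma radiation (blue squares). Right, proton minus gamma slope (grey diamonds). Bars are 95% confidence intervals, and all of them include 0 except the gamma slope of Emcn, from 0.05 to 1.15.

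Counts were also set against dose by rank. An exact permutation test of Spearman rho, two-sided and adjusted over all tested genes, gave 0 of 9 members for proton mice, where 0.0838% of genes passed, and 0 of 9 for gamma mice, where 1.8% did. At an unadjusted p under 0.05 the count was 0 of 9 in each, against 6.67% of all tested genes for proton and 15.7% for gamma mice. Spearman rho lay between -0.503 (Cldn5) and 0.503 (Tek) in proton mice, both with an exact permutation p of 0.144, and between -0.309 (Eng) and 0.455 (Emcn) in gamma mice.

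Radiation types were compared in their slopes and at matched doses. For the difference of slopes, 0 of 9 members and 0% of tested genes passed with edgeR, and DESeq2 also gave 0 in both. At an unadjusted p under 0.05 there were 0 members, and 254 of all genes with edgeR. Cldn5 had the largest difference among the members, -0.58 ± 0.33, with a 95% confidence interval of -1.27 to 0.10 (edgeR, p = 0.0923, adjusted p = 1). The intervals of Vwf and Tek, -1.18 to 1.24 and -0.91 to 1.34, leave room for large differences in either direction. That of Esam was -0.35 to 0.38.

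At matched dose, with dose as a block, 0 of 9 members and 0% of tested genes passed with edgeR, with 0 members and 1032 genes at an unadjusted p under 0.05. The log2 difference of proton from gamma mice was 0.53 ± 0.39 for Vwf, 0.42 ± 0.36 for Tek, 0.37 ± 0.27 for Emcn, 0.17 ± 0.10 for Esam and -0.15 ± 0.20 for Cldn5. It was above 0 for 8 of 9 members, whose signs are not independent, and for 7208 of all 13124 tested genes. Vwf was higher in the proton mouse at 7 of 10 doses, and its differences ran from -1.81 at 100 cGy to 2.09 at 75 cGy. Without the pair at 75 cGy the fitted difference was 0.34 for Vwf, 0.26 for Tek, 0.14 for Emcn, 0.11 for Esam and -0.26 for Cldn5. Over all single pairs left out it ranged from 0.345 to 0.773 for Vwf, from 0.137 to 0.521 for Emcn and from -0.262 to -0.021 for Cldn5, the last without the pair at 150 cGy. More of the proton than of the gamma mice had high globin counts, 6 against 4. The part of globin content in these differences was not tested.

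Other marker lists were read for the same dose slopes. Of the 92 other list genes tested, 0 passed with edgeR for either slope, with 2 at an unadjusted p under 0.05 for proton and 3 for gamma radiation, where 13.3% and 18.4% of all tested genes were. DESeq2 gave 0 for proton and 3 for gamma radiation (Col1a1, Col1a2 and Smtn). The 30 further endothelial genes had a median slope of 0.11 under proton and 0.15 under gamma radiation, and 18 and 24 of them were above 0. Mmrn2, an endothelial matrix glycoprotein, had 0.65 ± 0.31 for proton radiation (edgeR, adjusted p = 0.383), and Sele, the cytokine-induced adhesion molecule E-selectin, had 0.97 ± 0.48 for gamma radiation (adjusted p = 0.297) from counts of 1 to 19. The 8 arterial genes had medians of -0.01 and -0.05, with -0.34 ± 0.20 for Hey1 under gamma and -0.44 ± 0.27 for Sema3g under proton radiation. The 7 capillary genes had medians of -0.67 and -0.0034 (-1.06 and -0.014 without the proton mouse at 75 cGy), with -1.14 ± 0.59 for Apln under proton and -0.56 ± 0.28 for Meox2 under gamma radiation. With brown fat markers as a covariate, the gamma slope of Meox2 was -0.66 ± 0.23 and passed (edgeR, adjusted p = 0.0993). The 5 lymphatic genes had medians of 0.06 and -0.04, with -0.21 ± 0.32 for Lyve1 under proton and -0.20 ± 0.30 for Pdpn under gamma radiation. Smtn, a smooth muscle gene, had a gamma slope of -0.34 ± 0.12 (edgeR, adjusted p = 0.101), which passed in 6 of the alternatives that kept all mice, DESeq2 among them (adjusted p = 0.0363).

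The remaining lists were read in the same way. Median slopes for proton and gamma radiation were 0.01 and -0.07 for smooth muscle, -0.09 and -0.11 for fibroblast, -0.27 and 0.48 for brown fat, -0.54 and 0.29 for white fat, 0.18 and -0.05 for macrophage, -0.57 and 0.36 for platelet, -0.34 and 0.20 for skeletal muscle and 0.28 and 0.32 for red blood cell genes. Without the proton mouse at 75 cGy the proton medians were -0.30 for brown and -0.59 for white fat. Of the genes tested in these lists, 0 passed with edgeR for either slope, and those at an unadjusted p under 0.05 are within the counts given for the 92.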

How the data were processed

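RNA of 20 thoracic aortas was sequenced as strand-specific, poly(A)-selected paired-end libraries. The authors aligned reads to mm9, and the submitters' processing notes name CASAVA 1.8.1, STAR 2.5.2a and PORT 0.8.2a-beta. PORT resampled libraries to a common depth, and the authors deposited whole-number counts per gene on the sense strand. Totals were 6051657 to 6058006 per library, so the original depths are not known here. All sample columns were used.

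Groups came from the sample labels. Each mouse was the only one of its dose and type. The p-values of dose slopes set each slope against the spread of mice around the fitted lines, with both types together. Those of the matched-dose fit use the spread left after dose and radiation type. Rank trends and pairs of members have permutation p-values, without a fitted line.

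Counts were analysed in R 4.3.3 with edgeR 4.0.16 (TMM, robust quasi-likelihood) over the 13124 genes whose counts averaged 5 or more. A separate intercept and slope per 100 cGy was fitted for each type, in a joint model of both types with a shared residual spread. A second fit used dose as a block. P-values were adjusted by Benjamini-Hochberg over all tested genes, with a threshold of 0.1. The labels give no replicate numbers shared between groups, and dose paired the mice of the 2 types. Rank trends used exact two-sided permutation tests in each type. Levels for correlations were log2(TMM-normalised CPM + 0.5). Levels per kilobase used transcript length. DESeq2 1.42.0, other scalings, filters, dose scales, covariates and left-out mice were alternatives. Tests were tried on simulated counts.

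The members and marker lists were chosen with earlier results of these data known. By rule, the text names all members, up to 2 genes of each other list by smallest p for either slope, and the 10 genes most like the members' mean. Other list genes named with globin counts, with the proton mouse at 75 cGy or among the closing observations were chosen after their values were seen. Globin sets were set by the largest gap in summed globin counts, after the values were seen. Promoters came from RefSeq. Counts without molecular identifiers carry counting error and amplification error, and the counting values given cover the first only.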

Additional observations from a re-analysis of the deposited data

Results flagged for a closer look

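Of 18 groups of 10 mice looked at, that is each member in each radiation type, 2 held a mouse far from the others by Dixon's criterion, which chance meets in about 1 of 20 groups. Both concern the proton mouse at 75 cGy. Its Cdh5 count was 935, against 473 in the nearest proton mouse and 193 in the lowest. Its Emcn count was 171, against 91 in the nearest and 35 in the lowest. The same library held the highest fat marker counts and the lowest smooth muscle counts, and their part in these values was not tested.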

How the results depend on the processing

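The number of members past the threshold was 0 for the proton slope, the slope difference and the matched-dose comparison in every alternative run, with and without the dose block. For the gamma slope it was 1 (Emcn) with the brown fat covariate and 1 with the red blood cell covariate, the latter chosen after the values were seen, and 0 to 1 with 1 mouse left out, the 1 being without the proton mouse at 75 cGy. The median r of the member pairs was 0.642 within proton mice, 0.846 within gamma mice, 0.0929 within the 10 mice with the most globin and 0.663 within the 10 with the fewest. Of 351 member values under other alternatives, 24 changed sign, and the cause was not tested. At 0 to 125 cGy, slopes were 0.15 (Eng, proton), 0.066 (Cldn5, proton), 0.21 (Sema3g, proton), -0.16 (Tek, gamma) and 0.045 (Cdh5, difference), and rank correlations were -0.0714 (Vwf, proton), 0.333 (Eng, proton), -0.0479 (Emcn, proton), -0.0238 (Vwf, gamma) and 0.0476 (Eng, gamma). On log2(dose + 1), slopes were 0.0063 (Eng, proton), -0.027 (Tek, gamma), -0.020 (Tie1, gamma), -0.00032 (Esam, gamma) and 0.013 (Cdh5, difference). With the red blood cell covariate, the proton slope of Cdh5 was -0.10, and differences were -0.16 (Pecam1), -0.12 (Tek), -0.089 (Tie1), -0.28 (Vwf) and -0.050 (Esam). With the brown fat covariate, the proton slope of Eng was 0.036 and the difference of Cdh5 0.25. With GC content and length corrected, the proton slope of Eng was 0.061. Without TMM, the difference of Esam was -0.0061. With 1 mouse left out, 33 of 630 values changed sign. Proton slopes ranged from -0.049 to 0.23 (Cdh5) and -0.069 to 0.042 (Eng). Gamma slopes ranged from -0.22 to 0.65 (Tek), -0.0065 to 0.43 (Tie1), -0.10 to 0.74 (Vwf) and -0.36 to 0.047 (Pdpn). Differences ranged from -0.20 to 0.29 (Pecam1), -0.31 to 0.018 (Cdh5), -0.20 to 0.69 (Tek), -0.12 to 0.37 (Tie1), -0.33 to 0.52 (Vwf) and -0.072 to 0.16 (Esam). The matched-dose difference of Eng ranged from -0.023 to 0.075. No paired analysis was possible because the labels give no shared replicate numbers, other than the fit with dose as a block.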

Other observations

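Among endothelial genes outside the members, Robo4, Eltd1 and Gpr116 passed for 1 slope each in 1 of the alternatives run, without the proton mouse at 75 cGy, and they were chosen after their values were seen. Robo4, a guidance receptor of endothelium, had a proton slope of -1.01 ± 0.27 without that mouse (edgeR, adjusted p = 0.0664) and -0.88 ± 0.51 with it (adjusted p = 0.489). Eltd1, an adhesion G protein-coupled receptor of endothelium, had a proton slope of -0.94 ± 0.27 without it (adjusted p = 0.0894) and -0.86 ± 0.44 with it (adjusted p = 0.422). Gpr116, of the same receptor class, had a gamma slope of 0.52 ± 0.16 without it (adjusted p = 0.0553) and 0.54 ± 0.30 with it (adjusted p = 0.379). Mmrn2 also passed in 1 alternative, with red blood cell genes as a covariate, with a gamma slope of 0.57 ± 0.19 (edgeR, adjusted p = 0.0919). For Robo4, Eltd1 and Gpr116 the slope differences between radiation types did not pass, with adjusted p = 1 for each without that mouse.

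The genes most like Cldn5 over the 20 mice, also listed after the values were seen, were not those most like the other members. They were led by Fam54b (r = 0.795), Retn, a hormone of fat cells (0.780), Serhl (0.779) and Smarcc2 (0.778). Eltd1 (0.776) and Sema3g (0.775), both on the endothelial lists, followed. Without the proton mouse at 75 cGy the r of Fam54b was 0.724 and that of Sema3g 0.764.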
